A study of Mus musculus with 19 samples.

Results

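Glutamine and other amino acids enter muscle precursor cells through membrane transporters of several solute carrier families. The genes described here are 10 such transporters, a list that, like all further lists below, was chosen with earlier results of these data known. They are among the 35598 genes with assigned estimated counts: Slc1a3, Slc1a4, Slc1a5, Slc38a1, Slc38a2, Slc3a2, Slc7a5, Slc7a6, Slc7a11 and Slc7a1. They were measured in 19 libraries of polyadenylated RNA from primary myoblasts of mouse hind limb muscle, kept as dividing cells in growth medium for 24 h, as differentiated myotubes at 48 h or as fused myotubes at 72 h. The WT label covered 3, 3 and 4 libraries at these stages. The Glud1KO label covered 3, 2 and 4, and the design text describes these cells as deficient in Glud1, the mitochondrial enzyme that converts glutamate to 2-oxoglutarate. The labels give no Cre driver, promoter or strain and no age of the animals. Replicates carry numbers, but no label ties them to different animals or dishes, so the SDs, SEs and p-values below measure only the spread between these libraries, which may be technical.

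As background, Slc1a5 (ASCT2) exchanges glutamine and other neutral amino acids, and Slc1a4 (ASCT1) exchanges serine, alanine and other small neutral amino acids. Slc38a1 (SNAT1) and Slc38a2 (SNAT2) import glutamine and other neutral amino acids together with sodium, and SNAT2 is known to be induced when amino acids are scarce. Slc3a2 (CD98hc, 4F2hc) is a heavy chain that carries several light chains to the plasma membrane. Its light chains include Slc7a5 (LAT1), which takes up leucine and other large neutral amino acids in exchange for intracellular ones, Slc7a6 (y+LAT2), which exchanges cationic for neutral amino acids, and Slc7a11 (xCT), which imports cystine for glutathione synthesis and exports glutamate. Slc7a1 (CAT1) takes up arginine and lysine, and Slc1a3 (EAAT1, GLAST) takes up glutamate and aspartate. Several of these genes are known targets of ATF4, the transcription factor of the amino acid stress response.

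ATF4 can bind a composite C/EBP-ATF element, searched here as TGATGNAA on both strands of promoter windows from RefSeq (build GRCm38.p6) that reach from 250 bases before to 50 bases after the start of a gene. The windows hold 7 of the 10 genes, since Slc1a5, Slc38a1 and Slc7a5 had no entry. Matches were found for Slc7a11 and Slc1a4, and both stretches are shown because these genes had the largest label differences in the differentiated myotubes described below. The capitals mark the matches, and the stretches run 5′ to 3′ on the minus strand, at chr3:50443614-50443719 for Slc7a11 and chr11:20332699-20332728 for Slc1a4.
Slc7a11: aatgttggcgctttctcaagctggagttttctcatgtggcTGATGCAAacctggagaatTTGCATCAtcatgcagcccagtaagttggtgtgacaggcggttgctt
Slc1a4: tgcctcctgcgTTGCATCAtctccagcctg
In Slc7a11 the first match lies on the coding strand and the second on the other strand, and they begin 66 and 47 bases upstream of the start site. In Slc1a4 the single match is on the opposite strand, begins 4 bases upstream and runs across the start site. Of all 32851 windows, 3.97% hold at least 1 match and 0.07% hold 2 or more. Such a match is a description of the letters in the window and was not tested as a binding site.

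On GRCm38, Slc38a1 (chr15:96571418-96642913) and Slc38a2 (chr15:96687392-96699730) lie near each other on the minus strand, and Slc1a3 (chr15:8634124-8710764) is on the same chromosome and strand. The minus strand also carries Slc1a4 (chr11:20302180-20332713), Slc3a2 (chr19:8706882-8723369), Slc7a11 (chr3:49892526-50443614), Slc7a5 (chr8:121881150-121907694) and Slc7a1 (chr5:148327410-148399904). Slc1a5 (chr7:16781340-16798274) and Slc7a6 (chr8:106168857-106198706) are on the plus strand. No exon of the 10 genes overlaps an exon of another gene.

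Libraries held 16168131 to 30742634 estimated counts. Expression is given as CPM, read counts scaled to library size with TMM factors, and levels of different genes are compared only as TPM, which also divides by transcript length. All adjusted p-values are Benjamini-Hochberg values, taken over 15123 genes, of the quasi-likelihood test in edgeR. A gene is said to have risen or fallen, or to be called, where its value was under 0.05. The gene-level count of Glud1 did not separate the labels: its log2 difference, Glud1KO-labelled minus WT, was -0.016 in myoblasts, -0.087 in differentiated and -0.023 in fused myotubes, with adjusted p from 0.193 to 0.849, but -0.26, -0.31 and -0.34 (adjusted p = 0.000708, 0.000244 and 1.58e-05) with an offset for effective transcript length. The share of a short Glud1 transcript of 699 bases, ENSMUST00000159784, did separate them, a transcript chosen after its values were seen: it took 7.98% to 13.2% of the gene's counts in WT and 4.72% to 7.34% in Glud1KO-labelled libraries. The names of the deposited files carry a KO mark in both groups, with an added T for the Glud1KO label. The labels were followed, and the groups are called WT and Glud1KO-labelled. All 9 myogenic markers of a list that includes Pax7, Myod1, Myog and Ckm averaged 1 CPM or more in each group. They summed to 1925 to 2104 CPM in WT and 1667 to 1729 in Glud1KO-labelled myoblasts. There 5 of the 9 were lower with the Glud1KO label, as were 6.69% of all genes. The marker sums were 22933 to 26654 CPM in WT against 23514 to 25819 in Glud1KO-labelled differentiated myotubes. At that stage Mymk (0.27) and Mymx (0.67), which drive fusion, were higher with the Glud1KO label on the log2 scale. The precursor genes Pax7 (-0.92), Myf5 (-0.19) and Myod1 (-0.31) were lower. The other 4 were not called and the list's median was -0.009, where 11.0% of all genes were higher and 14.1% lower. The 7 fibroblast and mesenchymal progenitor markers summed to 287 to 294 CPM in WT and 269 to 274 in Glud1KO-labelled myoblasts, and to 24.3 to 27.1 against 8.13 to 12.1 in differentiated and 7.75 to 9.27 against 6.17 to 7.4 in fused myotubes. In differentiated myotubes nearly all of this sum was Col3a1, with a mean of 24.3 CPM in WT and 9.06 in Glud1KO-labelled libraries, and in fused myotubes Col3a1 (4.82 and 3.87) and Pdgfra (2.78 and 2.73) made up most of it, while Lum was at 0 in every WT library and Dcn and Thy1 at means of at most 0.265 CPM. Markers of endothelial cells, leukocytes, Schwann cells and adipocytes summed to at most 2.74 CPM in any library.

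Across stages, most of the transporters were lower after differentiation while Slc38a2 and Slc7a5 were higher. With scaling by library size alone the WT rise of Slc7a5 was lost. From myoblasts to differentiated myotubes in the WT libraries, 2 of the 9 transporters tested rose and 7 fell, where 42.4% of all genes tested rose and 42.6% fell. Slc7a11, Slc1a5, Slc1a4, Slc38a1, Slc7a6, Slc7a1 and Slc3a2 fell, by 3.14 to 0.30 on the log2 scale in that order, and Slc38a2 and Slc7a5 rose. Their median log2 change was -1.05, against 0.019 over all genes. From differentiated to fused myotubes in WT, 1 rose and 5 fell (37.4% and 37.7% of all genes), with a median of -0.12. From myoblasts to fused myotubes in WT, 2 rose and 7 fell (42.2% and 43.4%), with a median of -1.32. In the Glud1KO-labelled libraries 9, 6 and 9 transporters changed in these comparisons, where 83.7%, 70.2% and 87.2% of all genes did. A change between stages is thus the common state of a gene in these data. The stages did not overlap in 9, 5 and 9 of the 9 in WT, where 85.1%, 71.6% and 83.4% of all genes did not. With the Glud1KO label this held for 9, 6 and 9, and for 88.7%, 74.1% and 85.1% of all genes. Slc1a3 did not pass the filter on low counts and entered no test.

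Between the labels, every called difference in these 9 transporters was a lower value in the Glud1KO-labelled libraries in the analysis reported. Some alternatives also called higher values, for Slc38a2 in differentiated and for Slc38a1 and Slc1a4 in fused myotubes. In myoblasts, 0 of 9 transporters were higher and 5 were lower by edgeR, against 4.86% and 6.69% of all genes. These were Slc7a5, Slc7a11, Slc1a4, Slc7a1 and Slc3a2, with log2 differences of -0.28 to -0.15, and the count was 1 to 5 with 1 library left out and 1 with the effective length offset. The libraries of the labels did not overlap in 4 of the 5. That is 4 of the 9 tested, and the same held for 33% of all genes tested at this stage. In differentiated and fused myotubes the labels did not overlap in 5 and 2 of the 9, where 46.5% and 15.8% of all genes did not. In differentiated myotubes, 0 were higher and 4 lower, namely Slc7a11, Slc1a4, Slc7a1 and Slc38a1, with log2 differences of -1.32 to -0.32, against 11.0% and 14.1% of all genes. In fused myotubes, 0 were higher and 1 was lower, Slc7a11, against 6.32% and 6.72%. At an unadjusted p under 0.05 none was higher in myoblasts or differentiated myotubes, and in fused myotubes 2 were, Slc1a4 and Slc38a1. DESeq2 called 4, 4 and 1 transporters at the successive stages. The median log2 difference over the 9 was -0.15, -0.14 and -0.026 at the successive stages, and 0.014, -0.012 and -0.006 over all genes. The difference between the labels itself changed from myoblasts to differentiated myotubes in 5 transporters (19.1% of all genes) and from differentiated to fused myotubes in 3 (14.8%). The latter comparisons share their differentiated libraries with the former, and the Glud1KO-labelled side of these has only 2.

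**Figure D1:**
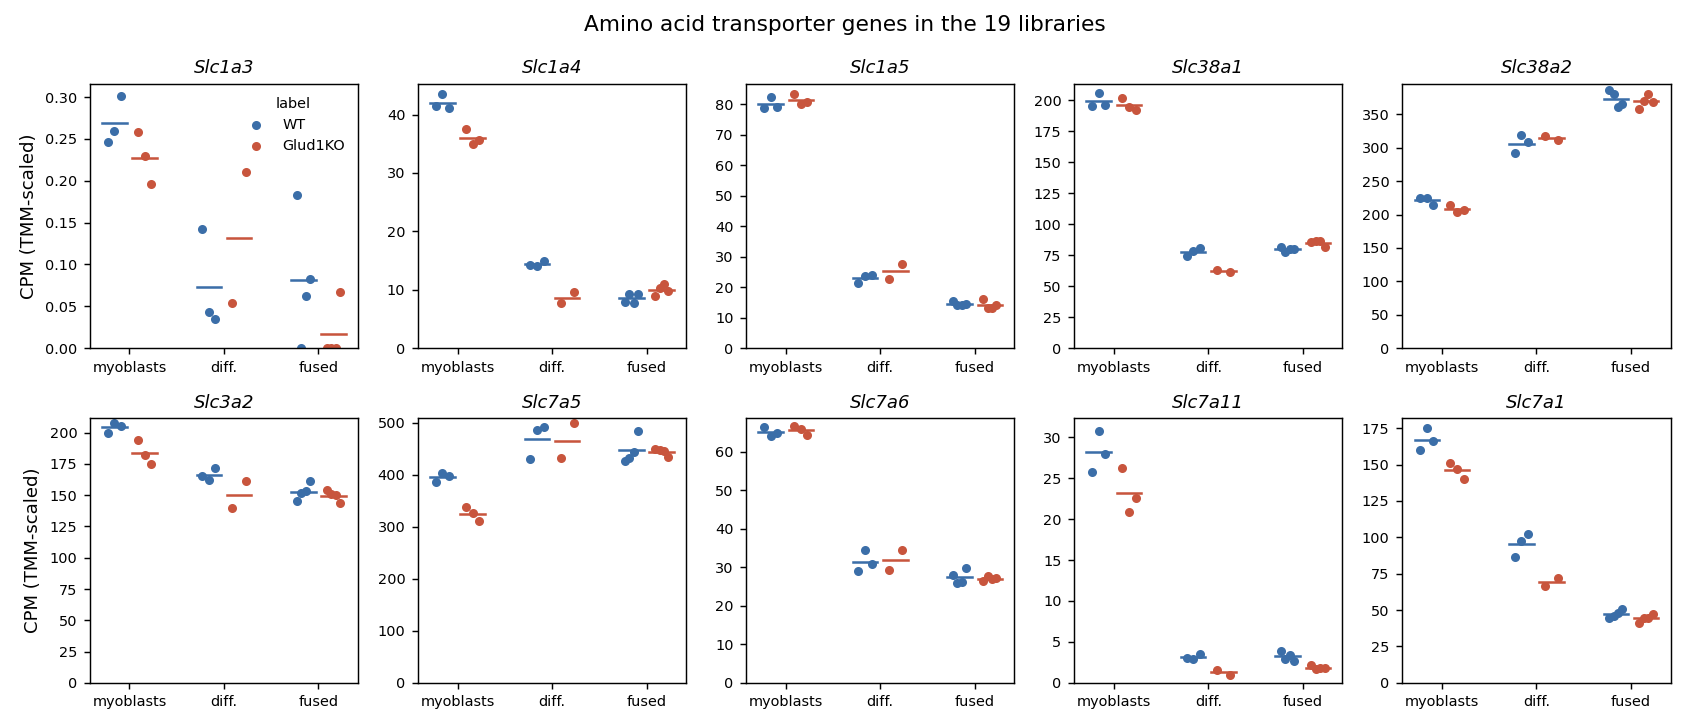
CPM (TMM-scaled, linear axes from 0) of the 10 transporter genes in each of the 19 libraries, by stage and label; points are libraries and bars are group means. Slc7a11 is at 20.9 CPM or more in all myoblast libraries and at 3.93 or less in all myotube libraries, while Slc38a2 is higher in every myotube library than in every myoblast library.

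**Figure D2:**
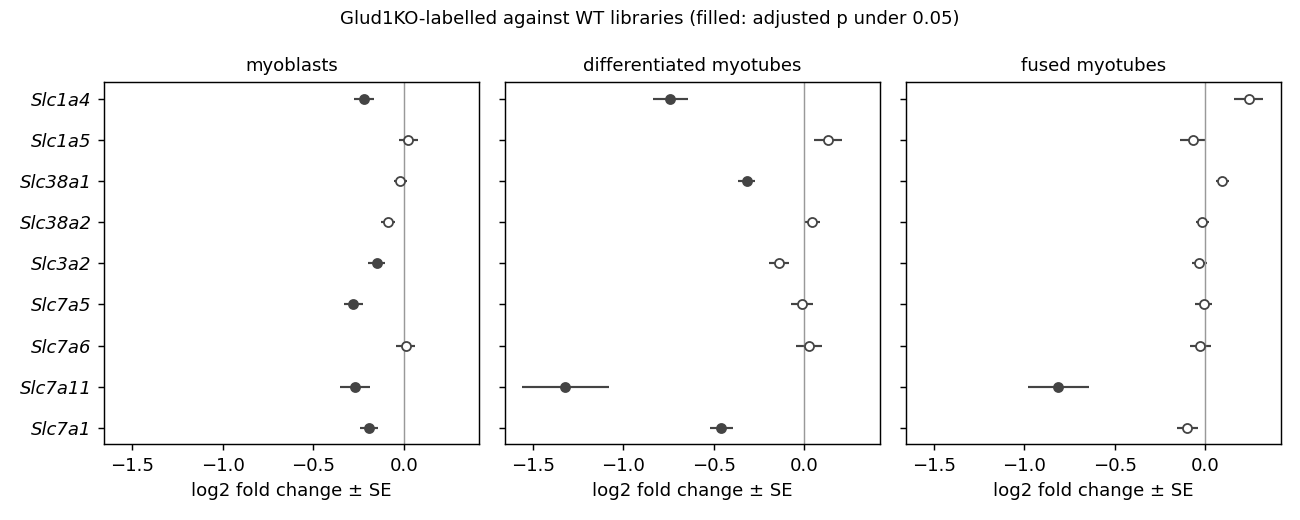
Log2 difference (Glud1KO-labelled minus WT, ± SE) of the 9 transporters tested at each stage; filled points have an adjusted p under 0.05. All filled points lie to the left of 0: 5 in myoblasts, 4 in differentiated and 1 in fused myotubes.

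Measured per length and summed over all transcripts, the heavy chain gene Slc3a2 had the highest level of the 10 in each of the 6 groups, with a mean of 284 TPM in WT myoblasts, followed by Slc7a5 with 148 and Slc38a2 with 80.7. The libraries of Slc3a2 and Slc7a5 overlapped only in the Glud1KO-labelled differentiated myotubes, at 153 to 161 and 138 to 157 TPM. The place of Slc3a2 in myotubes rests on short transcripts, and a coding transcript of 378 bases held 66.3 TPM of its mean in WT differentiated and 58.6 in WT fused myotubes. Summed only over coding transcripts of at least 1000 bases, a choice made after seeing the data, Slc3a2 was at 170, 124 and 103 TPM at the successive WT stages and Slc7a5 at 148, 159 and 138. On that measure Slc3a2 stayed above Slc7a5 in the myoblasts of both labels and lay below it, without overlap, in all 4 myotube groups. In fused myotubes of both labels it also lay below Slc38a2, which was at 114 TPM in WT. Below these 3 genes the order moved with the stage. In WT myoblasts Slc1a5 with 54.4 TPM (26.7 on its coding transcript), Slc38a1 with 47, Slc7a6 with 39 and Slc7a1 with 33.4 followed without overlap between neighbours. In WT differentiated myotubes Slc7a1, Slc38a1 and Slc7a6 lay at 17.2, 16.9 and 15.7 TPM, and each overlapped with the next. Slc1a5 was at 13.3 and 7.6 TPM in WT differentiated and fused myotubes, below these 3 genes, with overlap only with Slc7a1 (7.91 TPM) in the latter. Over the long coding transcripts, however, it already lay below Slc38a1 (45.5 TPM) and Slc7a1 (32.8 TPM) in WT myoblasts. On that measure Slc7a6 was at 18.4 TPM in WT myoblasts, below Slc7a1 and Slc1a5. In WT differentiated myotubes it was at 8.74 TPM, below Slc38a1 (15.1) and Slc7a1 (16.9) without overlap. Slc1a4, Slc7a11 and Slc1a3 were the last 3 in every group, in that order, with 15.6, 5.62 and 0.317 TPM in WT myoblasts.

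Slc38a2, the SNAT2 carrier, rose at both steps under both labels. Its CPM was 225, 225 and 215 in the WT myoblast libraries, 292, 319 and 308 in WT differentiated and 387, 380, 361 and 365 in WT fused myotubes. The Glud1KO-labelled libraries had 215, 204 and 207, then 318 and 312, then 358, 370, 381 and 369. No stage overlapped with another within a label. From myoblasts to differentiated myotubes the log2 change was 0.47 ± 0.040 (SE) in WT (adjusted p = 2.15e-11) and 0.60 ± 0.044 in Glud1KO-labelled cells (adjusted p = 1.25e-12). Scaled by library size alone, which moved the median of all genes to -0.23 and -0.31 in these comparisons, the changes were 0.22 and 0.29, still called. A further rise of 0.28 ± 0.037 in WT (0.43 after a trend with length and GC content was removed) and 0.23 ± 0.043 in Glud1KO-labelled cells followed in fused myotubes. The labels overlapped at each stage, with adjusted p from 0.178 to 0.847. The call was gained in myoblasts when only the 2 groups compared were fitted (log2 -0.098, adjusted p = 0.0384), and in differentiated myotubes after the length and GC trend was removed (0.17, adjusted p = 0.000529).

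Slc38a1, the other SNAT carrier, went the opposite way at the first step. Its libraries held 195, 206 and 196 CPM in WT myoblasts, 74, 78.1 and 81 in WT differentiated and 81.4, 77.4, 80.1 and 80 in WT fused myotubes. The fall at differentiation was 1.35 on the log2 scale (SE 0.038, adjusted p = 3.81e-22), and the 2 kinds of WT myotubes overlapped (0.036, adjusted p = 0.4, but 0.24 with an adjusted p of 1.28e-06 after the length and GC trend was removed). In the Glud1KO-labelled libraries the gene was at 202, 194 and 192 CPM in myoblasts, 62.9 and 61.6 in differentiated and 85.9, 86.5, 86.3 and 81.7 in fused myotubes. Here the differentiated libraries were lower than all other libraries of the gene. The label difference was -0.020 in myoblasts (adjusted p = 0.785), -0.32 ± 0.047 in differentiated myotubes (adjusted p = 1.05e-05) and 0.095 ± 0.036 in fused myotubes (adjusted p = 0.087), where the labels did not overlap. The call in differentiated myotubes held in all 29 alternative analyses, although removal of the length and GC trend reduced it to -0.16, and the same removal gave a call in fused myotubes (0.14, adjusted p = 0.00641). Its change was called at both steps, by -0.30 ± 0.060 (adjusted p = 0.00057) from myoblasts to differentiated and by 0.42 ± 0.060 (adjusted p = 1.81e-05) from differentiated to fused myotubes.

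Slc1a4, the ASCT1 exchanger, showed a pattern of the same kind with a larger difference. WT libraries had 41.4, 43.5 and 41.1 CPM in myoblasts, 14.3, 14 and 15 in differentiated and 7.95, 9.33, 7.65 and 9.27 in fused myotubes, so that each stage lay below the one before without overlap. Glud1KO-labelled libraries had 37.5, 35 and 35.7 in myoblasts, 7.7 and 9.54 in differentiated and 8.97, 10.3, 10.9 and 9.79 in fused myotubes. The level of the fused stage was therefore already reached in the differentiated libraries with this label. In WT the gene fell by 1.54 (SE 0.066) at differentiation and by a further 0.75 (SE 0.079) at fusion. With the Glud1KO label it fell by 2.06 (SE 0.087) at differentiation, and the change at fusion was 0.23 ± 0.10 with an adjusted p of 0.05, just under the threshold before rounding, a call that was lost in 22 of the 29 alternatives. The label difference was -0.22 ± 0.057 in myoblasts (adjusted p = 0.0131), -0.74 ± 0.098 in differentiated myotubes (adjusted p = 2.03e-06) and 0.24 ± 0.082 in fused myotubes (adjusted p = 0.0588). The labels did not overlap at the first 2 stages and did in fused myotubes. The myoblast call was lost without WT myoblast replicate 2 (adjusted p = 0.0671), without Glud1KO myoblast replicate 2 (0.0667) or 3 (0.0546), with an offset for effective length (0.177) and with coding transcripts only (0.0592). The differentiated call held in all 29, and the fused difference passed the threshold in 7 (adjusted p from 0.022 to 0.0488). The label difference changed by -0.53 ± 0.11 to the differentiated stage (adjusted p = 0.00146) and by 0.98 ± 0.13 from there to the fused stage (adjusted p = 5.48e-06), and both held in all alternatives. The fibroblast marker sum, nearly all Col3a1, was also lower in the Glud1KO-labelled differentiated libraries (8.13 to 12.1 against 24.3 to 27.1 CPM). Of the 4 markers tested 2 were called lower, where 14.1% of all genes were. The part of this sum in the differences of Slc1a4, Slc38a1, Slc7a11 and Slc7a1 at this stage was not tested. In RNA from a whole culture, fewer cells of a type and less RNA per cell cannot be told apart.

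Slc1a5, the ASCT2 exchanger, showed no called difference between the labels at any stage. WT libraries had 78.6, 82.2 and 79.2 CPM in myoblasts, 21.2, 23.5 and 23.9 in differentiated and 15.5, 14.1, 14.2 and 14.6 in fused myotubes. Glud1KO-labelled libraries had 83.2, 79.9 and 80.8, then 22.7 and 27.6, then 16.1, 13.2, 13.1 and 14. The labels overlapped at each stage, with log2 differences of 0.025, 0.13 and -0.067 and adjusted p of 0.82, 0.219 and 0.625. The direction in fused myotubes was not settled: the difference was 0.38 with the effective length offset and -0.25 with coding transcripts only, neither called (adjusted p = 0.0868 and 0.0964), and the mean summed TPM was 7.6 in WT and 9.69 with the Glud1KO label. Without Glud1KO differentiated replicate 1, which leaves a single library in that group, the difference at that stage was 0.27. On the coding transcript, means were lower with the Glud1KO label in myoblasts (53.2 against 56.8 CPM) and differentiated myotubes (11.7 against 13.1). That is opposite in direction to the gene sums at these stages. At differentiation the gene fell by 1.80 (SE 0.059, adjusted p = 8.84e-21) in WT and by 1.69 (SE 0.069, adjusted p = 1.59e-18) in Glud1KO-labelled cells.

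The second fall of Slc1a5, by 0.65 (SE 0.069, adjusted p = 3.01e-09) in WT and 0.85 (SE 0.080, adjusted p = 4.11e-10) in Glud1KO-labelled cells from differentiated to fused myotubes, lay in its non-coding transcripts. The annotation lists a coding transcript of 2764 bases (ENSMUST00000108496) and a transcript of similar length that keeps an intron, ENSMUST00000127401 of 2807 bases. The intron-retaining transcript took 18.4%, 24.9% and 20.3% of the gene's counts in WT myoblasts and 26.6%, 42.1% and 36.1% in WT differentiated myotubes. It was listed at 0 in all 4 WT fused libraries. With the Glud1KO label its share was 22.8%, 29.6% and 34.5% in myoblasts, 43.1% and 48.1% in differentiated and 5.79%, 0%, 8.04% and 0% in fused myotubes. Its level fell from 8.05 ± 2.17 CPM (SD, n = 3) in WT differentiated to 0 in WT fused libraries. Counts on the coding transcript averaged 56.8 ± 1.39 CPM in WT myoblasts (SD, n = 3), 13.1 ± 1.5 (n = 3) in differentiated and 13.9 ± 0.806 (n = 4) in fused myotubes. With the Glud1KO label it was at 53.2 ± 5.62 (n = 3), 11.7 ± 0.707 (n = 2) and 11.9 ± 1.53 (n = 4). Counted over coding transcripts only, the log2 change from differentiated to fused myotubes was 0.012 in WT (adjusted p = 0.916) and -0.083 with the Glud1KO label (adjusted p = 0.545). A higher share of intron-retaining transcripts in differentiated myotubes was not particular to Slc1a5. Transcripts annotated as retaining an intron took 1.86%, 5.75% and 0.813% of the counts of Slc38a1 at the successive WT stages. The same share was 1.79%, 4.86% and 0.942% for Slc38a2 and 1.36%, 8.48% and 3.35% for Slc7a6. Over all genes it was 2.55% to 2.57% in WT myoblast libraries, 2.83% to 3.14% in WT differentiated and 1.73% to 1.74% in WT fused libraries, and its part in the course of Slc1a5 was not tested. Counts of transcripts that share most of their bases are estimates of how reads divide between them.

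**Figure D3:**
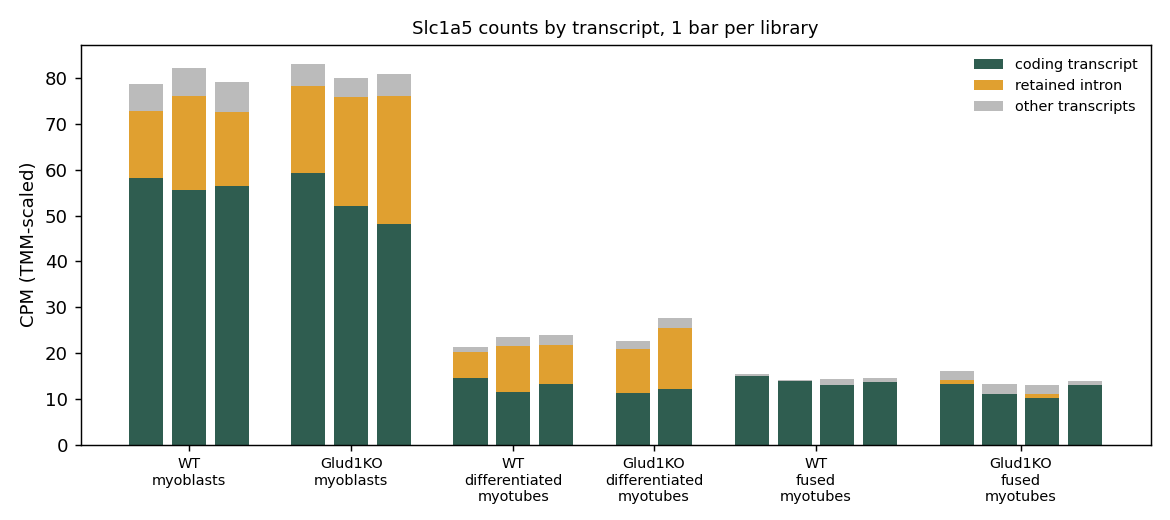
Stacked bars give the TMM-scaled CPM of Slc1a5 in each of the 19 libraries, divided into the coding transcript, the intron-retaining transcript of 2807 bases and all others. The coding part is alike in differentiated and fused myotubes, and the intron-retaining part is visible in differentiated libraries and small or 0 in fused ones.

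Slc1a3, the glutamate carrier, was close to undetected. Its libraries held between 0 and 0.301 CPM, with means of 0.269 ± 0.0285 (SD, n = 3) in WT and 0.228 ± 0.0307 (n = 3) in Glud1KO-labelled myoblasts. The counts behind this were 6 to 9 per library in the myoblasts of both labels and at most 4 in any myotube library. A difference between the labels was not tested, since the gene did not pass the filter on low counts.

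Slc3a2, the heavy chain, fell at differentiation under both labels. Its CPM was 200, 208 and 205 in WT myoblasts, 165, 162 and 172 in differentiated and 145, 152, 153 and 161 in fused myotubes. Glud1KO-labelled libraries held 194, 182 and 175, then 140 and 161, then 154, 151, 150 and 144. Falls at differentiation were 0.30 (SE 0.047, adjusted p = 2.1e-06) in WT and 0.29 (SE 0.054, adjusted p = 2.45e-05) in Glud1KO-labelled cells, and the changes were -0.55 and -0.59 with scaling by library size alone and -0.18 and -0.17 with coding transcripts only. The further fall in WT, by 0.12 (SE 0.045, adjusted p = 0.0181), was lost without WT differentiated replicate 3 (adjusted p = 0.0979), without WT fused replicate 1 (0.0744) and with the effective length offset (0.266). The labels did not overlap in myoblasts, where the log2 difference was -0.15 ± 0.046 (adjusted p = 0.0309). This call was lost without either of WT or Glud1KO myoblast replicates 2 and 3 (adjusted p from 0.0891 to 0.169), with the effective length offset (0.396) and with coding transcripts only (0.0632). In differentiated myotubes the difference was -0.14 ± 0.054, again without overlap, at an adjusted p of 0.0541, which passed the threshold in 8 of the 29 alternatives.

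Slc7a5, the LAT1 light chain, was lower with the Glud1KO label in myoblasts alone. Its CPM was 387, 403 and 398 in WT and 338, 327 and 311 in Glud1KO-labelled myoblasts, with no overlap. The log2 difference was -0.28 ± 0.053 (adjusted p = 0.00065), and the call held in all 29 alternatives. In differentiated myotubes the libraries lay at 431, 486 and 492 in WT and 432 and 499 with the Glud1KO label. In fused myotubes they lay at 427, 432, 443 and 485 against 450, 448, 446 and 434. The labels overlapped at both stages, with log2 differences of -0.014 and -0.007. The label difference changed by 0.27 ± 0.080 from myoblasts to differentiated myotubes (adjusted p = 0.0184), a call that was lost without Glud1KO myoblast replicate 3 (adjusted p = 0.0524) and without Glud1KO differentiated replicate 2 (0.16, adjusted p = 0.247). At differentiation Slc7a5 rose by 0.25 ± 0.053 in WT (adjusted p = 0.000132) and by 0.52 ± 0.059 in Glud1KO-labelled cells (adjusted p = 8.78e-09). The WT rise depends on the scaling: by library size alone it was -0.005 (adjusted p = 0.921), a scaling that moved the median of all genes to -0.23, and the rise with the Glud1KO label became 0.21, still called. From differentiated to fused myotubes the change was -0.073 ± 0.050 in WT (adjusted p = 0.188) and -0.066 ± 0.057 with the Glud1KO label (adjusted p = 0.31). The gene lies within the span of Gm20388 on the other strand.

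Slc7a6, the y+LAT2 light chain, had nearly the same values under both labels. The WT libraries held 66.4, 64.1 and 64.8 CPM in myoblasts, 29, 34.4 and 30.9 in differentiated and 27.9, 25.8, 26.1 and 29.8 in fused myotubes. Those with the Glud1KO label held 66.6, 65.9 and 64.3, then 29.4 and 34.6, then 26.4, 27.8, 26.9 and 27.2. The label differences were 0.011 ± 0.052, 0.024 ± 0.071 and -0.026 ± 0.059 on the log2 scale, with adjusted p from 0.837 to 0.933, and no alternative gave a call. Both labels showed a fall at differentiation, by 1.05 (SE 0.057) and 1.04 (SE 0.066). At fusion it fell by 0.19 (SE 0.060, adjusted p = 0.00586) in WT, lost without WT differentiated replicate 2 (adjusted p = 0.0755) and with the effective length offset (0.23), and by 0.24 (SE 0.070, adjusted p = 0.0037) in Glud1KO-labelled cells, lost without Glud1KO differentiated replicate 2 (-0.11, adjusted p = 0.262).

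Slc7a11, the cystine and glutamate exchanger, had, of the 9 transporters tested, the largest fall at differentiation under each label and the largest label differences in both kinds of myotubes. Its CPM was 25.7, 30.8 and 27.9 in WT myoblasts, 3.04, 2.96 and 3.49 in differentiated and 3.93, 2.92, 3.45 and 2.72 in fused myotubes. With the Glud1KO label it was 26.2, 20.9 and 22.6, then 1.6 and 0.943, then 2.13, 1.67, 1.83 and 1.8. All myotube libraries with the Glud1KO label were lower than all WT myotube libraries, whereas the myoblast libraries overlapped. The fall at differentiation was 3.14 (SE 0.12, adjusted p = 1.45e-19), or 8.8-fold, in WT and 4.19 (SE 0.17, adjusted p = 2.6e-18), or 18.3-fold, in Glud1KO-labelled cells. From differentiated to fused myotubes the change was 0.031 ± 0.16 in WT and 0.54 ± 0.27 with the Glud1KO label (adjusted p = 0.866 and 0.074), the latter being 0.97 (adjusted p = 0.0254) without Glud1KO differentiated replicate 1. The label difference was -0.27 ± 0.084 in myoblasts (adjusted p = 0.0378), -1.32 ± 0.24 in differentiated myotubes (adjusted p = 0.000168) and -0.81 ± 0.17 in fused myotubes (adjusted p = 0.0022). The difference grew by -1.05 ± 0.26 from myoblasts to differentiated myotubes (adjusted p = 0.00464), but not to a call without Glud1KO differentiated replicate 2 (-0.72, adjusted p = 0.131) or with the effective length offset (-1.1, adjusted p = 0.0805).

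The values of Slc7a11 in myotubes rest on few counts. In differentiated myotubes the libraries held 63.8 to 99.3 estimated counts in WT and 18.4 and 29.7 with the Glud1KO label, and the call held in all 29 alternatives. The myoblast call was lost in 7 of them, namely without replicate 2 or 3 of either label (adjusted p from 0.102 to 0.206), with DESeq2 (0.062), with the effective length offset (0.501) and with coding transcripts only (0.148). In fused myotubes the call was lost with the effective length offset (-0.45, adjusted p = 0.356). There, in Glud1KO-labelled replicate 4, 11.2% of the 27 counts went to a transcript of 481 bases and the TPM of the gene was 1.08 against 0.295 to 0.416 in the other 3 libraries and 0.479 to 0.74 in WT. Counted without regard to length, this library lay at 1.8 CPM, within the range of its group.

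Slc7a1, the CAT1 carrier of arginine and lysine, fell at both steps. It was at 160, 175 and 166 CPM in WT myoblasts, 86.7, 97.7 and 102 in differentiated and 44.6, 46.1, 48.2 and 50.7 in fused myotubes. The Glud1KO-labelled libraries had 151, 147 and 140, then 66.7 and 71.7, then 41.2, 44.4, 44.4 and 47.4. The labels did not overlap at the first 2 stages and did in fused myotubes. In WT the fall was 0.81 (SE 0.052, adjusted p = 5.81e-14) at differentiation and 1.01 (SE 0.054, adjusted p = 2.15e-15) at fusion. With the Glud1KO label it was 1.08 (SE 0.063) and 0.64 (SE 0.065). The label difference was -0.19 ± 0.050 in myoblasts (adjusted p = 0.012), -0.46 ± 0.064 in differentiated myotubes (adjusted p = 3.92e-06) and -0.098 ± 0.056 in fused myotubes (adjusted p = 0.287). The myoblast call was lost without WT replicate 2 (adjusted p = 0.0767), without Glud1KO replicate 3 (0.0762), with the effective length offset (0.0516) and after removal of the length and GC trend (-0.11, adjusted p = 0.0663). The differentiated call held in all 29, with a value of -0.30 after that removal. The label difference changed by -0.27 ± 0.081 (adjusted p = 0.0186) to the differentiated stage, lost without WT differentiated replicate 3 (adjusted p = 0.0642), without Glud1KO differentiated replicate 1 (0.127) and with the effective length offset (0.115). It changed by 0.37 ± 0.085 (adjusted p = 0.00378) from there to the fused stage, which held in all alternatives.

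**Figure D4:**
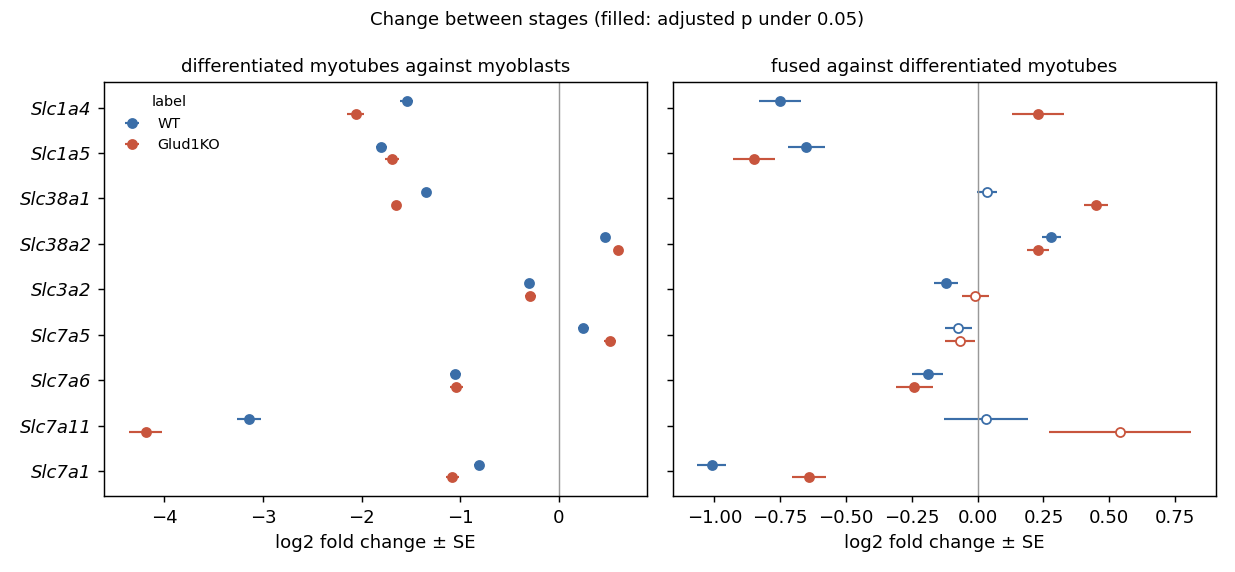
Log2 change (± SE) of the 9 transporters tested between successive stages in WT and Glud1KO-labelled libraries; filled points have an adjusted p under 0.05. At fusion Slc1a4 and Slc38a1 lie to the right of 0 with the Glud1KO label (0.23 and 0.45), and in WT at -0.75 and 0.036.

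Set against the heavy chain, the light chains stood in a higher ratio after differentiation. Summed over Slc7a5, Slc7a6, Slc7a7, Slc7a8, Slc7a10 and Slc7a11, light chain TPM per Slc3a2 TPM was 0.689 ± 0.0402 (SD, n = 3) in WT myoblasts, 0.954 ± 0.106 (n = 3) in differentiated and 0.974 ± 0.0771 (n = 4) in fused myotubes. With the Glud1KO label the ratio was 0.638 ± 0.0122 (n = 3), 1.11 ± 0.0663 (n = 2) and 0.992 ± 0.0822 (n = 4). The lowest ratio among the WT myotubes was 0.857 and the highest among the WT myoblasts 0.733. Over coding transcripts of at least 1000 bases the ratio was higher but took the same course, with means of 1.02, 1.42 and 1.52 at the successive WT stages and 0.948, 1.6 and 1.55 with the Glud1KO label. Slc7a5 supplied 76.2% ± 1.28 of the light chain TPM in WT myoblasts and 86% ± 0.381 in differentiated myotubes. The share of Slc7a11 was 2.88% ± 0.229 and 0.415% ± 0.094 in the same groups, and 0.155% ± 0.0385 in Glud1KO-labelled differentiated myotubes. These shares are over all transcripts and were not computed over the long coding ones. There Slc7a6 was at 18.4 and 8.74 TPM in WT myoblasts and differentiated myotubes, against 39 and 15.7 over all transcripts. Slc7a5 was at 148 TPM in WT myoblasts on both measures. Slc7a8 (LAT2), another light chain for neutral amino acids, went from 0.195 to 9.05 TPM between WT myoblasts and differentiated myotubes. Slc7a10 was listed at 0 in every library.

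**Figure D5:**
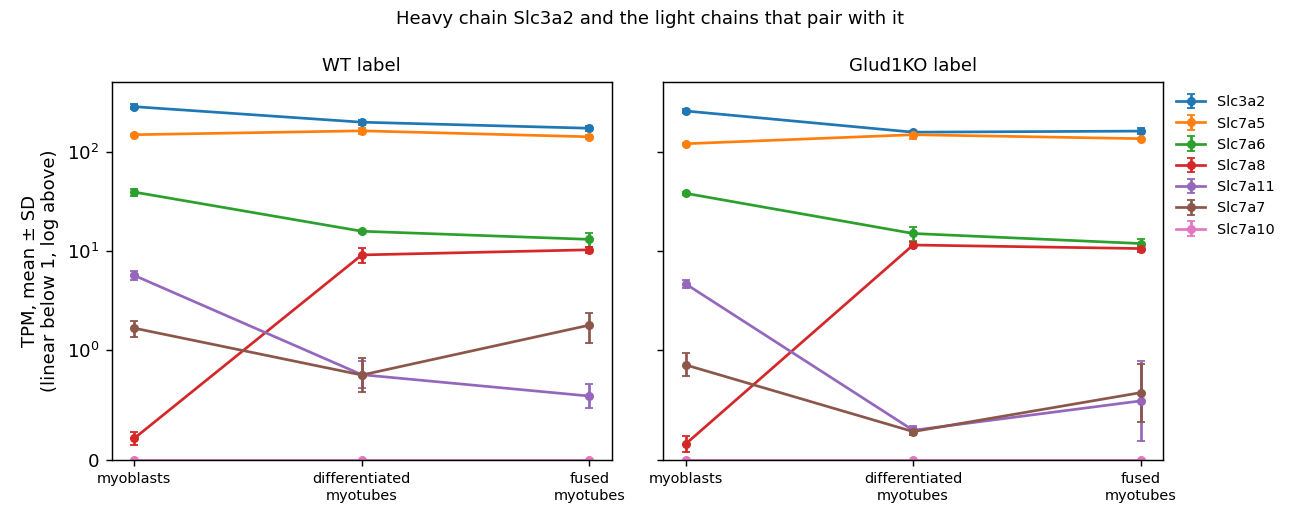
Mean TPM (± SD over 2 to 4 libraries, axis linear below 1 and logarithmic above) of Slc3a2 and 6 light chain genes by stage, in WT (left) and Glud1KO-labelled libraries (right). Summed over all transcripts, Slc3a2 and Slc7a5 stay on top in all 6 groups, while Slc7a8 and Slc7a11 cross between myoblasts and differentiated myotubes.

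Of 30 other amino acid transporters of the plasma membrane, 16 passed the filter. In WT, 7 rose and 7 fell at differentiation, near the 42.4% and 42.6% of all genes. The risers included Slc7a8 (log2 5.66 ± 0.18), the cationic amino acid carrier Slc7a2 (2.37 ± 0.093) and the taurine carrier Slc6a6 (1.59 ± 0.051), and those that fell included Slc6a15 (-4.72 ± 0.19) and Slc1a6 (-3.72 ± 0.18). At fusion 7 rose and 6 fell (37.4% and 37.7% of all genes), among them the leucine carrier Slc43a2 (1.92 ± 0.060), which rose, and Slc7a2 (-2.47 ± 0.092). Between the labels 0 were higher and 5 lower in myoblasts, with Slc6a9, a glycine carrier, at -0.41 ± 0.072 (adjusted p = 0.000277), 1 higher and 4 lower in differentiated myotubes, and 0 higher and 1 lower in fused myotubes. Of all genes, 4.86% were higher and 6.69% lower in myoblasts, 11.0% and 14.1% in differentiated, and 6.32% and 6.72% in fused myotubes. At an unadjusted p under 0.05, 0 of the 16 were higher in myoblasts and 2 in fused myotubes. Slc7a8 was the 1 that was higher (0.47 ± 0.10, adjusted p = 0.000969), and Slc6a6 was lower in myoblasts (-0.26 ± 0.050) and in differentiated myotubes (-0.32 ± 0.056, or -0.18 after the length and GC trend was removed). The list's median label difference was -0.18, -0.15 and 0.007 at the successive stages. The call of Slc6a9 in myoblasts was lost with the effective length offset (adjusted p = 0.184).

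Among 8 lysosomal amino acid transporters, 7 were tested. At differentiation in WT, where 42.4% of all genes rose and 42.6% fell, 6 rose, among them the arginine sensor Slc38a9 (1.37 ± 0.084) and the cystine exporter Ctns (1.19 ± 0.066), and 1 fell, Slc38a7 (-0.75 ± 0.063, or -0.42 with the effective length offset), a glutamine carrier. Between the labels edgeR and DESeq2 called 0 of 7 in myoblasts, where 1 had an unadjusted p under 0.05, and Slc38a7 was the 1 lower gene in differentiated (-0.23 ± 0.081, adjusted p = 0.0371) and in fused myotubes (-0.29 ± 0.068, adjusted p = 0.00399), the former call being lost in 12 alternatives. Of all genes, 6.69%, 14.1% and 6.72% were lower at the successive stages, so 1 of 7 in differentiated myotubes is close to the common share. Of 12 mitochondrial amino acid carriers, 10 were tested, and 4 rose and 6 fell at differentiation in WT. The serine carrier Sfxn1 fell by 3.65 (SE 0.080). Between the labels 1 was lower in myoblasts (6.69% of all genes), 1 higher and 1 lower in differentiated myotubes (where 11.0% and 14.1% of all genes were), and 0 were called in fused myotubes by edgeR or DESeq2, with 0 at an unadjusted p under 0.05. In myoblasts 3 were higher and 1 lower at an unadjusted p under 0.05. The called genes were Sfxn3, lower in myoblasts (-0.12 ± 0.036, adjusted p = 0.0264, lost in 9 alternatives) and in differentiated myotubes (-0.38 ± 0.051), and the branched-chain amino acid carrier Slc25a44, higher in the latter (0.23 ± 0.053). The differentiated call of Sfxn3 was lost with the effective length offset (adjusted p = 0.0664) and that of Slc25a44 without Glud1KO differentiated replicate 2 (0.17, adjusted p = 0.0922).

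Glutathione genes were read beside Slc7a11, since imported cystine feeds their pathway. Of 9 listed, 8 were tested, and 2 rose and 6 fell at differentiation in WT (42.4% and 42.6% of all genes), with Gclm, the modifier subunit of the first enzyme, at -2.22 ± 0.062. Between the labels 0 were higher and 1 lower in myoblasts (4.86% and 6.69% of all genes), 0 higher and 3 lower in differentiated myotubes (11.0% and 14.1%), and 0 were called in fused myotubes by edgeR or DESeq2, with 0 at an unadjusted p under 0.05. At an unadjusted p under 0.05, 2 were higher and 3 lower in myoblasts, and 0 higher and 4 lower in differentiated myotubes. Chac1, which breaks down glutathione, was lower in myoblasts (-0.47 ± 0.079, adjusted p = 0.000146) and in differentiated myotubes (-0.63 ± 0.13, adjusted p = 0.00076). The synthesis genes Gclc (-0.27 ± 0.061) and Gss (-0.21 ± 0.052) were lower in differentiated myotubes. Without Glud1KO differentiated replicate 1 Chac1 was at -0.32 (adjusted p = 0.101) and Gss at -0.18 (0.0658), and without replicate 2 Gclc was at -0.21 (0.0658). The effective length offset also ended the calls of Gclc (0.104) and Gss (0.0788).

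Of 11 genes listed as known regulators of these transporters, 10 were tested. Between the labels 0 were higher and 3 lower in myoblasts (4.86% and 6.69% of all genes), 0 higher and 5 lower in differentiated (11.0% and 14.1%), and 1 higher and 3 lower in fused myotubes (6.32% and 6.72%). At an unadjusted p under 0.05, 0 were higher at the first 2 stages. Trib3, a pseudokinase gene induced by ATF4, was lower at each stage, with log2 differences of -0.83 ± 0.074, -1.26 ± 0.13 and -0.62 ± 0.084 (adjusted p = 7.82e-09, 4.83e-08 and 8.08e-06). Ddit3 (CHOP), another gene of the stress response, was at -0.57 ± 0.080, -0.37 ± 0.091 and -0.26 ± 0.068, and the fused call was lost in 3 alternatives. The RNA of Atf4 itself was not called, at -0.055 ± 0.034, -0.047 ± 0.039 and -0.085 ± 0.031 (adjusted p = 0.338, 0.425 and 0.0771), and it fell between WT stages, by 0.29 (SE 0.035) at differentiation and by 0.46 (SE 0.033) at fusion. Nfe2l2 (NRF2), an activator of Slc7a11, was lower in myoblasts (-0.17 ± 0.042) and in fused myotubes (-0.16 ± 0.045), calls that were lost in 2 and 4 alternatives. Myc was lower in differentiated myotubes (-0.57 ± 0.13, adjusted p = 0.00219), which was -0.36 (adjusted p = 0.13) without Glud1KO differentiated replicate 1, and fell by 3.29 (SE 0.075) at differentiation in WT. The small gain of Nedd4l in fused myotubes (0.11 ± 0.039, adjusted p = 0.0488) was lost in 22 alternatives. The core of the antioxidant response element that NRF2 binds was searched as TGACNNNGC on both strands. It was found in the promoter windows of Slc38a2, Slc7a1 and Slc7a6, not in that of Slc7a11, and in 12.4% of all windows. The E-box CACGTG was also searched, and was found in no window of these transporters and in 7.15% of all windows.

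Of 21 genes of amino acid sensing at the lysosome, all 21 were tested. At differentiation in WT 12 rose and 7 fell (42.4% and 42.6% of all genes), with the tumour suppressor Flcn at 2.05 ± 0.043 and Sesn2, a leucine sensor that is itself an ATF4 target, at -1.82 ± 0.067. Between the labels 0 were higher and 4 lower in myoblasts (4.86% and 6.69% of all genes), 3 higher and 4 lower in differentiated (11.0% and 14.1%), and 0 higher and 1 lower in fused myotubes (6.32% and 6.72%), so the counts in myotubes lie near or below those of all genes. At an unadjusted p under 0.05, 0 were higher in myoblasts and 2 in fused myotubes. Sesn2 was lower at each stage (-0.21 ± 0.058, -0.44 ± 0.095 and -0.27 ± 0.078), with the calls in myoblasts and fused myotubes lost in 6 and 2 alternatives. Flcn was lower in myoblasts (-0.21 ± 0.047, adjusted p = 0.00416). In differentiated myotubes Sesn3 was lower (-0.61 ± 0.076, adjusted p = 1.03e-06). Depdc5 (0.31 ± 0.072), Flcn (0.20 ± 0.044) and Rragd (0.17 ± 0.041) were higher there, with adjusted p of 0.00171, 0.00105 and 0.00266. Without Glud1KO differentiated replicate 2 the calls of Depdc5 (adjusted p = 0.0581) and Flcn (0.0769) were lost, and without replicate 1 that of Rragd (0.107). The call of Depdc5 also ended with the effective length offset (0.105) and with coding transcripts only (0.0737), and that of Rragd with scaling by library size alone (0.0618).

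Genes with the most similar course over the 6 group means were found for each transporter by the smallest root mean square difference of centred log2 CPM among the 15122 other genes tested. For Slc7a11 these were Ifitm3 (0.111) and Serpine2 (0.145), for Slc1a4 Arhgef28 (0.0796) and Gm49700 (0.0866), and for Slc1a5 Stac2 (0.0454) and Stk35 (0.072). The course of Slc38a1 was nearest to Armc10 (0.0371) and Slc44a1 (0.0383), that of Slc38a2 to Washc1 (0.0168) and Serinc1 (0.0264), and that of Slc7a6 to Rplp0 (0.0179) and Mea1 (0.0285). Slc3a2 lay nearest to Tpra1 (0.0302) and Gtf2ird1 (0.0314), Slc7a5 to Phf10 (0.0567) and 9130221H12Rik (0.0573), and Slc7a1 to Tmem68 (0.0727) and Limk1 (0.0853). No transporter of the list was among the 2 nearest genes of another. These distances describe 6 means from the same libraries and carry no test.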

How the data were processed

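Polyadenylated RNA of 19 libraries was sequenced after TruSeq mRNA preparation, per the labels. Per the submitters' processing notes, bcl2fastq 2.20, fastp 0.20.0, kallisto 0.46.1 and edgeR 3.36 were used with build GRCm38.p6. The authors deposited an estimated count and a TPM value for each of 121843 transcripts, per the file headers. A read that matches several transcripts is divided between them, and whether strand was used is not given in the sources used here. The deposited TPM values were summed per gene for levels and entered no test.

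Transcripts were assigned with GENCODE M21 (121018 matched; the other 825 held 0.255% to 0.507% of counts and were left out). Estimated counts were summed per gene and rounded. All 19 libraries entered 1 edgeR 4.0.16 quasi-likelihood fit in R 4.3.3 with a coefficient for each of 6 groups, filterByExpr and TMM, tested first on simulated data. Values of p were adjusted by Benjamini-Hochberg over 15123 genes and called under 0.05. The alternatives were DESeq2 1.42.0 (as test and as size factors), library size scaling, other filters, only the groups compared and a replicate block. Further ones were an effective length offset, removal of a length and GC trend fitted with splines, coding transcripts only, and leaving out each library. No replicate pair agreed within sampling noise (chi-square per degree of freedom 2.14 to 7.66). Numbers shared by replicates did not pair them.

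The transporters and all other lists were chosen with earlier results of these data known. Beyond the 10 transporters and Glud1, named genes are the called ones with the largest changes, at most 3 in each direction per list and comparison, with a mean of at least 5 CPM in the higher group. The 2 nearest genes by course were also named. Atf4 where not called, marker genes, Slc7a10 and transcripts were named after their values were seen. Levels over coding transcripts of at least 1000 bases were added after seeing the data.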

Additional observations from a re-analysis of the deposited data

Results flagged for a closer look

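In 8 instances the difference between the labels changed between stages by a test of that change itself (edgeR interaction contrasts, Benjamini-Hochberg adjustment over all genes). From myoblasts to differentiated myotubes it changed by -0.53 (log2) in Slc1a4, -0.30 in Slc38a1, -1.05 in Slc7a11, -0.27 in Slc7a1 and 0.27 in Slc7a5. From differentiated to fused myotubes it changed by 0.98 in Slc1a4, 0.42 in Slc38a1 and 0.37 in Slc7a1. Both steps share the 2 Glud1KO-labelled differentiated libraries. Their fibroblast marker sum, nearly all Col3a1, was 8.13 to 12.1 CPM against 24.3 to 27.1 in WT, and the part of this was not tested. The label difference of all 9 myogenic markers also changed from myoblasts to differentiated myotubes (6 upward, 3 downward, median 0.62, where 19.1% of all genes changed), and that of 4 from differentiated to fused myotubes (2 upward, 2 downward, where 14.8% did), and their part was not tested.

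A single library stood far from the other 3 of its group in 2 of the 20 groups of 4 libraries that were checked, where chance gives about 1 in 20. Slc1a3 had 0.0666 CPM in 1 Glud1KO-labelled fused library, which is 1 count, and 0 in the others. Slc38a1 had 81.7 CPM in another Glud1KO-labelled fused library, below 85.9 to 86.5 in the rest.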

How the results depend on the processing

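Each of 29 alternatives was applied to 99 results, 9 transporters in 11 comparisons. Of 66 calls, 50 held in every alternative and 16 were lost in at least 1, and 15 uncalled results gained a call somewhere. Values near 0 that were not called before or after were not counted as changing direction.

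The direction of a called value turned in 5 cases. Scaling by library size alone, which moved the median of all genes to -0.23 and -0.33 in the WT changes to differentiated and fused myotubes, gave Slc7a5 -0.005 from myoblasts to differentiated and -0.15 from myoblasts to fused myotubes, and Bach1 -0.072 from myoblasts to differentiated myotubes. Coding transcripts only gave Slc1a5 0.012 from differentiated to fused WT myotubes. The effective length offset gave Slc25a22 0.27 for the same step. The cause was not tested.

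Called genes between the labels in myoblasts numbered 1747 in the analysis reported, 2625 with only the groups compared, 589 with the effective length offset, 1055 with coding transcripts only and 925 to 2008 with 1 library left out (925 without WT myoblast replicate 3, 1144 without Glud1KO myoblast replicate 1 and 1067 without replicate 3). Transporters called in myoblasts numbered 5, then 1 with the offset, 2 with coding transcripts and 1 to 5 with 1 library left out (1 without WT replicate 2 or Glud1KO replicate 3, 2 without Glud1KO replicate 2, 3 without WT replicate 3). With the offset, genes called in differentiated myotubes went from 3810 to 2150, in fused myotubes from 1972 to 822, and genes whose label difference changed from 2890 to 1456 and from 2238 to 980. Transporters called in fused myotubes numbered 1, then 2 with a mean CPM of at least 1, 0 with the offset, 3 after the length and GC trend was removed and 1 to 2 with 1 library left out. For the change of the label difference to the differentiated stage they numbered 5, then 3 with the offset and 3 to 5 with 1 library left out (3 without Glud1KO differentiated replicate 2).

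Replicate numbers did not pair the libraries: 41 same-numbered pairs had correlations of -0.053 to 0.054. With the replicate number as a block, 1666, 3667 and 1858 genes and 5, 4 and 1 transporters were called between the labels at the successive stages. The block ended 1 transporter call, the change of Slc1a4 to the fused stage with the Glud1KO label (0.21, adjusted p = 0.0876).

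Depth limits Slc1a3, with at most 9 counts in a library, and Slc7a11 in myotubes with the Glud1KO label, with 18.4 to 43 counts. Intervals from counts would cover counting error only. The Glud1KO-labelled differentiated group has 2 libraries.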
